A study of Mus musculus with 4 samples.

Results

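Cytochrome oxidase and ATP synthase, the enzymes that end oxidative phosphorylation, were followed through their nuclear genes in the heart. The members were all genes whose symbol in the platform annotation starts with Cox and a digit or with Atp5, on probe sets that carry 1 symbol only. This gave 34 genes of 8251, read by 51 probe sets: 15 genes of oxidase subunits and their isoforms, 5 of oxidase assembly and 14 of ATP synthase. RNA of mouse heart was hybridised to 4 arrays, 2 of wild-type and 2 of heterozygous mice, and the question was which transcripts differ between these genotypes. The gene in which the mice were heterozygous is not reported here. All animals were adult males of 8 to 16 weeks with a mixed 129/Black Swiss background. Each array held RNA from a pool of 5 hearts, numbered 1 and 2 within a genotype. The labels do not say whether the pools of a genotype came from separate animals, so the p-values measure only the spread between these samples, and pooling hides the spread between single hearts.

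Cytochrome oxidase, complex IV of the respiratory chain, passes electrons from cytochrome c to oxygen and pumps protons across the inner mitochondrial membrane. Its catalytic core is encoded by mitochondrial DNA, while the surrounding subunits are nuclear, and subunits 6a, 7a and 8 come in a form found in heart and skeletal muscle and a form found in most tissues. ATP synthase lets protons flow back through a ring of c subunits, which turns a central stalk inside the F1 head and drives the making of ATP, while a peripheral stalk holds the head still. Heart muscle is packed with mitochondria and draws nearly all its ATP from this pair of enzymes.

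Promoters of 5 members are shown because their genes carry the contrasts described below: both members of the Cox7a pair, the ubiquitous form of Cox6a, the muscle form of subunit 8, and Atp5j, the member with the largest change. The sequences are those of RefSeq for GRCm38.p6 and cover the 250 bases before the annotated start, 5′ to 3′ on the strand of the gene. RefSeq windows were matched by gene ID. Any member windows on 1 chromosome were left out, though that chromosome stayed among all windows. After this, 26 of the 34 members had a window, and Atp5a1 was among those without 1. Capitals mark matches on either strand to GCGCATGC (NRF1), CCGGAAG (the ETS type site that GABP binds), AAGGTCA (a core site of estrogen-related receptors), TAAAAATA (MEF2) or ATGGCGG (YY1). The windows lie at chr5:115348959-115349208, minus strand (Cox6a1), chr9:79759854-79760103, minus strand (Cox7a2), chr7:30183921-30184170, plus strand (Cox7a1), chr7:140900447-140900696, minus strand (Cox8b) and chr16:84834977-84835226, minus strand (Atp5j, 1 of 2 annotated starts).
Cox6a1: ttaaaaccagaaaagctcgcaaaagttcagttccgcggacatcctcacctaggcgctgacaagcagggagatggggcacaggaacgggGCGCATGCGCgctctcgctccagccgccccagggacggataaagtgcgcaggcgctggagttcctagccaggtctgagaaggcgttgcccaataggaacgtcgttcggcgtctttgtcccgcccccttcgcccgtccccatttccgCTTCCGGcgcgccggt
Cox7a2: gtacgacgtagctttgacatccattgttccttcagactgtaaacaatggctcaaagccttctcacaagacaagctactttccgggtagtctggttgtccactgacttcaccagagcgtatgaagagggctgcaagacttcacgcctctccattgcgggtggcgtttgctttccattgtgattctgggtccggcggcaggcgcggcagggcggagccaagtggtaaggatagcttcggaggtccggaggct
Cox7a1: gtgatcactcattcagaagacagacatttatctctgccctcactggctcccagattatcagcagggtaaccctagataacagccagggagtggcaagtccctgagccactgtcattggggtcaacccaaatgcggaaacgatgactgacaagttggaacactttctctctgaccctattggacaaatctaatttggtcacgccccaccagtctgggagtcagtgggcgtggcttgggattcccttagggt
Cox8b: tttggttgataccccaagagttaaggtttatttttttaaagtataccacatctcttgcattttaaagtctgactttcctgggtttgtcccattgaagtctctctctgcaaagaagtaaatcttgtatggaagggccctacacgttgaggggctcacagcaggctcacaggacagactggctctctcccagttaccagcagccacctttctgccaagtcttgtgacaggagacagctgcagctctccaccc
Atp5j: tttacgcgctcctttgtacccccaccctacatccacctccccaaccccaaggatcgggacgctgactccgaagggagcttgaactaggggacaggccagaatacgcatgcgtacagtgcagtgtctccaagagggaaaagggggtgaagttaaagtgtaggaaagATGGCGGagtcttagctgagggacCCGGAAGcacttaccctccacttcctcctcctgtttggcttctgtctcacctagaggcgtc

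In the Cox6a1 window, NRF1 matches began 162 and 160 bases before the start and overlapped, and an ETS match began 16 bases before it. The Atp5j window shown held a YY1 match at 85 bases and an ETS match at 61 bases before the start. The window of the other annotated Atp5j start held none of the 5 motifs. The windows of Cox7a1, Cox7a2 and Cox8b held none of the 5 motifs, which says only that these letters are not in these bases. Over the 30 windows of members, 8 (26.7%) held the ETS motif, against 6.91% of all 32851 promoter windows of this length. These belong to 7 genes, since Cox16 has a match before each of its 2 starts. The NRF1 motif was in 4 member windows (13.3%, against 2.26% of all windows). The core site of estrogen-related receptors was in 1 (3.33%, against 4.08%), the YY1 motif in 1 (3.33%, against 2.21%) and the MEF2 motif in 0 (against 2.45%). The shares were not matched for base composition and were not tested. Genes with an ETS match included members that rose (Atp5e, Atp5j, Atp5l), members that did not pass (Cox16, Cox6a1, Cox6b1) and the untested Cox20. A match is a description of the sequence, not of binding.

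Most of the bright members were higher in the heterozygous hearts, and no member was called lower. On the brightest probe set of each gene, 14 of the 29 tested members rose, 0 fell and 15 did not pass, at an adjusted p below 0.05 by limma over all 7453 tested probe sets. Over all 5692 tested genes, 19.5% were called higher and 19.5% lower on the same rule. The median log2 change of the tested members was 0.47 (1.38-fold), against 0.021 over all tested genes. Their log2 changes ran from -0.31 to 1.30, and 24 of 29 were above 0. Both heterozygous pools lay above both wild-type pools in 20 members (36.2% of all tested genes), below them in 0 (34.5% of all tested genes), and the pools overlapped in 9. Between the pools of a genotype, members differed by a median of 0.17 (wild type) and 0.15 (heterozygous) on the log2 scale. The signals of the brightest probe sets of all 34 members, added together, made up 2.29% and 2.12% of the summed signal of the wild-type arrays and 3.08% and 3.03% of that of the heterozygous arrays.

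**Figure D1:**
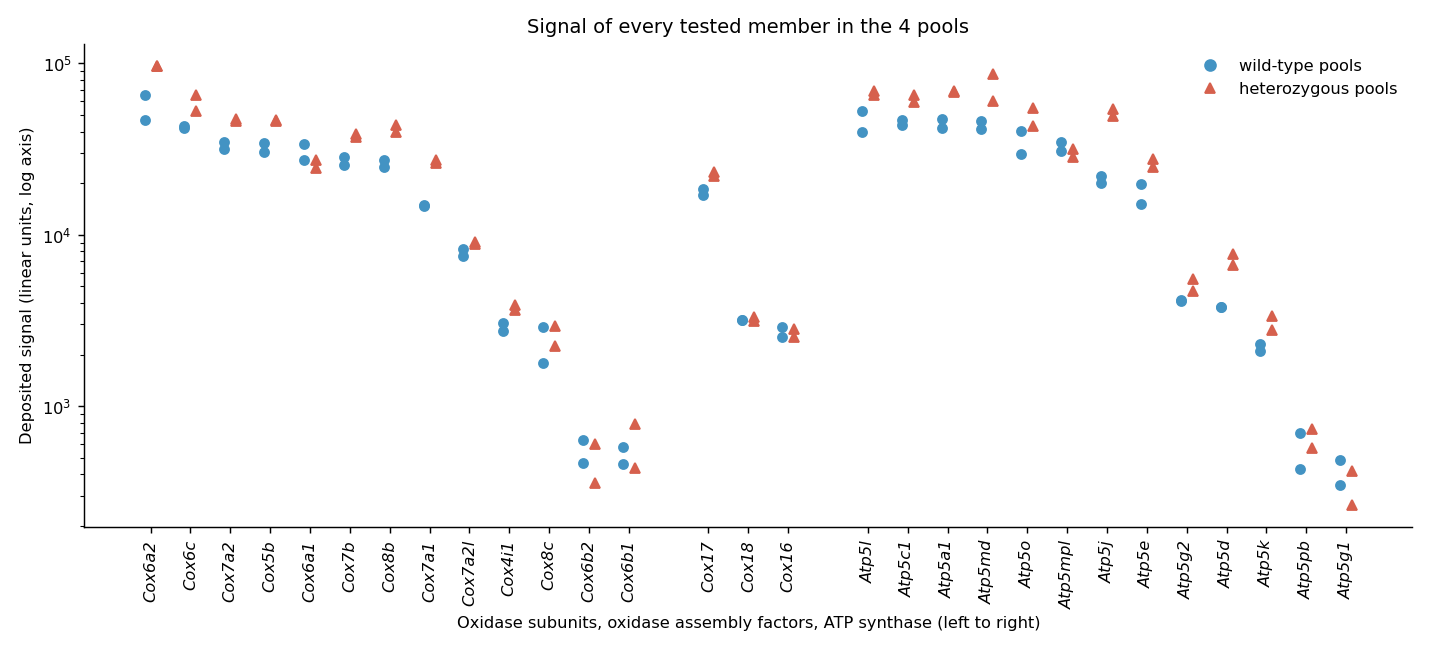
Deposited signal (linear units on a log axis) of the 29 tested members in each of the 4 pools, grouped from left to right into oxidase subunits, oxidase assembly factors and ATP synthase, and ordered by wild-type signal within each group. Each point is 1 pool of hearts. Triangles (heterozygous) lie above circles (wild type) in 20 members.

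Brightness went together with the calls. Of the 14 members that lay among the brightest 2% of probe sets on all 4 arrays, 11 rose, and of the other 15 tested members 3 rose. Among all 118 genes that bright, 63.6% were called higher, with a median log2 change of 0.52, against a median of 0.51 for the 14 members. Standard errors were smaller among the bright members (median 0.13, and 0.16 in the others). The 4 dimmest tested members, Atp5g1, Atp5pb, Cox6b1 and Cox6b2, had signals of 265 to 790 and did not pass. The part of brightness in the members' rise was not tested.

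**Figure D2:**
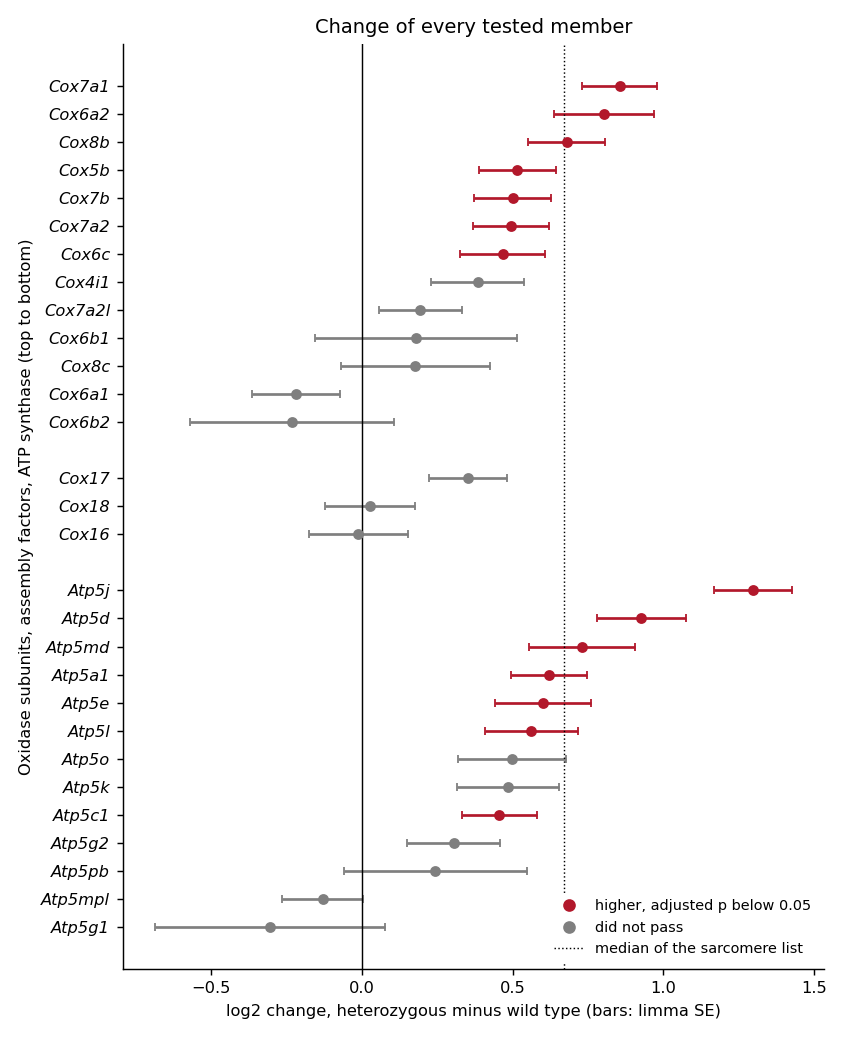
Log2 change, heterozygous minus wild type, of the 29 tested members, with limma's standard error as the bar. Red points passed and grey points did not. The dotted line is the median of the sarcomere list (0.67), and Atp5j, Atp5d, Cox7a1, Cox6a2, Atp5md and Cox8b lie to the right of it.

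All 3 muscle isoforms of the oxidase rose. Cox7a1, the muscle form of subunit 7a, had signals of 14908 and 14709 in wild type against 27258 and 26347 in the heterozygous pools. The pools of a genotype lay close together and the genotypes did not overlap. The mean went from 14808 ± 141 to 26803 ± 645 (SD, n = 2), a 1.81-fold rise (log2 change 0.86, SE 0.13, adjusted p = 0.00101). Cox6a2, the muscle form of the regulatory subunit 6a, had signals of 65426 and 46452 in the wild-type pools against 96011 and 96558 in the heterozygous pools. Its wild-type pools were further apart than those of Cox7a1, though both lay below the heterozygous ones. Its rise was 1.75-fold (log2 change 0.80, SE 0.17, adjusted p = 0.00548). Cox8b, the muscle form of subunit 8, had signals of 27263 and 24833 in wild type and 40026 and 43402 in the heterozygous pools, a 1.60-fold rise (log2 change 0.68, SE 0.13, adjusted p = 0.00359). Its dimmer probe set rose as well (log2 change 0.82, adjusted p = 0.00354). The calls of Cox6a2 ended without heterozygous pool 1 (log2 change 0.81, adjusted p = 0.0756) or pool 2 (0.80, adjusted p = 0.0774), and that of Cox8b ended without heterozygous pool 2 (0.62, adjusted p = 0.0659).

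Of the ubiquitous partners, 1 rose, 1 did not pass and 1 was not tested. Cox7a2, the form of subunit 7a in most tissues, rose 1.41-fold, from signals of 34800 and 31552 to 47284 and 46106 (log2 change 0.49, SE 0.13, adjusted p = 0.0139). Cox6a1, the ubiquitous form of subunit 6a, had signals of 33649 and 27194 in wild type against 27406 and 24661 in the heterozygous pools. The pools overlapped, with heterozygous pool 1 just above wild-type pool 2. Its log2 change of -0.22 (SE 0.15, adjusted p = 0.273) did not pass, and passed as lower under quantile normalization (-0.42, adjusted p = 0.0254) and cyclic loess (-0.52, adjusted p = 0.00947). Cox8a, the ubiquitous form of subunit 8, was among the dim probe sets left out of the test, with signals of 66.9 to 87.2 over the 4 pools, so the Cox8b pair has no comparison.

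The ratio of the muscle to the ubiquitous isoform was compared between genotypes within each array, where any scaling factor of an array cancels. For subunit 6a, the log2 ratio of Cox6a2 over Cox6a1 stood 0.093 above and below its wild-type mean in the wild-type pools, and 0.94 and 1.10 above that mean in the heterozygous pools. The ratio was thus 2.03-fold higher in the heterozygous pools (log2 difference of the changes 1.02; SD between pools 0.13 in wild type and 0.11 in heterozygous). For subunit 7a, the log2 ratio of Cox7a1 over Cox7a2 stood 0.061 from its mean in the wild-type pools and 0.37 and 0.35 above it in the heterozygous pools. That ratio was 1.28-fold higher (log2 difference 0.36; SD 0.086 and 0.0089). In both pairs the genotypes did not overlap. The two-sided exact permutation test gave p = 0.333 for each of the 2 pairs (adjusted p = 0.333), the smallest value that 2 pools against 2 allow, so the difference exceeds the spread between pools without being able to pass a threshold. Shifts of whole arrays, floors, filters, the block and the choice of probe set cannot move this difference for these genes. Of the settings that can, quantile normalization gave log2 differences of 1.01 for subunit 6a and 0.38 for subunit 7a, and cyclic loess gave 0.92 and 0.44. With 1 pool left out the difference ran from 0.93 to 1.12 for subunit 6a and from 0.30 to 0.42 for subunit 7a.

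**Figure D3:**
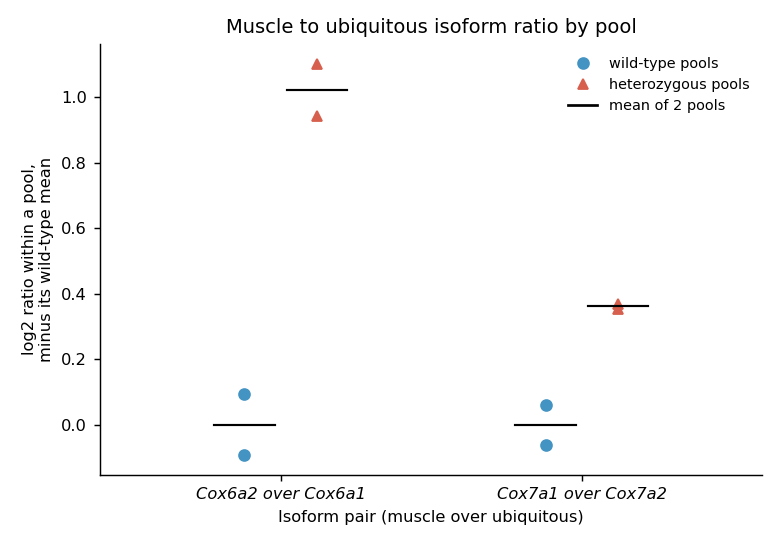
Log2 ratio of the muscle isoform over the ubiquitous isoform in each pool, minus the mean of the wild-type pools, for subunits 6a and 7a. Points are pools and bars are means of 2 pools. The heterozygous means stand 1.02 and 0.36 above the wild-type means.

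Of all 13 tested subunit and isoform genes of the oxidase, 7 rose, 0 fell and 6 did not pass (median log2 change 0.47). The share called higher was 53.8%, against 19.5% of all tested genes and 63.6% of those among the brightest 2% on all 4 arrays. The 7 include 3 subunits outside the isoform pairs. Cox5b, which binds a zinc ion on the matrix side, rose 1.43-fold, from 34507 and 30574 to 46716 and 46152 (log2 change 0.52, SE 0.13, adjusted p = 0.0124). Cox7b, a small subunit needed to assemble the enzyme, rose 1.41-fold, from 28510 and 25365 to 38936 and 37131 (log2 change 0.50, SE 0.13, adjusted p = 0.0151). Cox6c rose 1.38-fold, from 43220 and 42171 to 65784 and 52973, with the heterozygous pools further apart than the wild-type ones (log2 change 0.47, SE 0.14, adjusted p = 0.0287). The genotypes did not overlap in these 3 genes. Without heterozygous pool 1 or pool 2, none of the 3 passed (log2 changes 0.51 and 0.52 for Cox5b, 0.47 and 0.53 for Cox7b, 0.31 and 0.62 for Cox6c), nor did Cox7a2 (0.48 and 0.51).

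Among the subunits that did not pass, Cox4i1, the common form of subunit 4, had signals of 3057 and 2740 in wild type and 3906 and 3649 in the heterozygous pools (log2 change 0.38, SE 0.15, adjusted p = 0.0795). Cox7a2l, a relative of subunit 7a that joins the oxidase to complex III in supercomplexes, had signals of 7486 and 8250 against 8889 and 9086 (log2 change 0.19, SE 0.14, adjusted p = 0.298). In both, the heterozygous pools lay above the wild-type pools. Cox6b1, which lies at the contact between the monomers of the oxidase, had overlapping pools (462 and 580 against 435 and 790). Cox6b2, its testis form, had a log2 change of -0.23 on its brightest probe set (adjusted p = 0.626) and 0.79 on another (adjusted p = 0.131), so its probe sets disagreed in sign. Cox8c, a further isoform of subunit 8, had overlapping pools (log2 change 0.18, SE 0.25, adjusted p = 0.612). Cox5a, the partner of Cox5b, was not tested, with signals of 101 to 231.

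None of the tested assembly genes passed. Cox17, the chaperone that brings copper to the oxidase, had signals of 18539 and 17014 in wild type and 23249 and 22085 in the heterozygous pools, which did not overlap (log2 change 0.35, SE 0.13, adjusted p = 0.0593). Cox18, which inserts a core subunit into the membrane, had nearly the same signal in all pools, from 3127 to 3333 (log2 change 0.027, SE 0.15, adjusted p = 0.907). Cox16, a further assembly factor, had overlapping pools (log2 change -0.012, SE 0.16, adjusted p = 0.961). Cox14 and Cox20 were dim and not tested, with signals of 15.6 to 107 and of 35.0 to 231. By limma, 0 of these 3 tested genes was called after adjustment and 1, Cox17, had an unadjusted limma p below 0.05 (0.0240).

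In ATP synthase, 7 of 13 tested genes rose, 0 fell and 6 did not pass (median log2 change 0.50). The share called higher was 53.8%, against 19.5% of all tested genes and 63.6% of those among the brightest 2% on all 4 arrays. The largest change of all members was that of Atp5j, coupling factor 6 of the peripheral stalk. It read 21912 and 20126 in wild type against 54154 and 49271 in the heterozygous pools (means 21019 ± 1262 and 51712 ± 3452, SD, n = 2). The genotypes were far apart compared with the pools of a genotype (log2 change 1.30, SE 0.13, adjusted p = 0.000135). Atp5j was the member that was called higher in all 17 alternatives, with adjusted p from 5.8e-05 to 0.0302. The other peripheral stalk genes did not pass. Atp5o, the subunit that ties the stalk to the F1 head, had signals of 40146 and 29539 against 54535 and 43348 (log2 change 0.50, SE 0.18, adjusted p = 0.0544), with wide gaps between the pools of both genotypes. Its call appeared without wild-type pool 1 (log2 change 0.72, adjusted p = 0.00699). Atp5pb, subunit b of the stalk, was dim and its pools overlapped (log2 change 0.24, SE 0.30, adjusted p = 0.568).

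All 4 tested genes of the F1 head and central stalk rose, with Atp5a1 the only member of the head itself. Atp5a1, the alpha subunit of the head, went from 41701 and 47353 to 68711 and 68022 (1.54-fold, log2 change 0.62, SE 0.13, adjusted p = 0.00512). Atp5d, the delta subunit of the central stalk, went from 3767 and 3770 to 6684 and 7683 on its brightest probe set (1.90-fold, log2 change 0.93, SE 0.15, adjusted p = 0.00151). A second Atp5d probe set rose too (log2 change 0.62, adjusted p = 0.0116), while those with log2 changes of 0.23 (adjusted p = 0.272) and 0.25 (adjusted p = 0.653) did not pass. Atp5e, the epsilon subunit, rose 1.52-fold, from 19828 and 15143 to 27723 and 24930 (log2 change 0.60, SE 0.16, adjusted p = 0.0166). Atp5c1, the gamma subunit that forms the shaft, rose 1.37-fold, from 46726 and 43794 to 65112 and 59144 (log2 change 0.46, SE 0.13, adjusted p = 0.0198), and its dimmer probe set rose as well (log2 change 0.50, adjusted p = 0.0224). A probe set annotated to both Atp5c1 and its pseudogene Atp5c1-ps fell 3.22-fold (limma log2 change -1.68, adjusted p = 5.7e-05). On the brightest probe sets of the 4 genes, both heterozygous pools lay above both wild-type pools. The calls of Atp5a1, Atp5e and Atp5c1 ended without heterozygous pool 1 (log2 changes 0.61, 0.52 and 0.39) or pool 2 (0.63, 0.68 and 0.53), and that of Atp5e also without wild-type pool 2 (0.41).

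Genes of the membrane part were mixed. Atp5md, a small subunit that helps ATP synthase form dimers, rose 1.66-fold, from 41359 and 45982 to 60334 and 86655 (log2 change 0.73, SE 0.18, adjusted p = 0.0111). Its heterozygous pools were the furthest apart of the bright members, and the call ended without pool 2 (log2 change 0.47, adjusted p = 0.130). Atp5l, subunit g, rose 1.48-fold, from 52596 and 39719 to 69307 and 65660 (log2 change 0.56, SE 0.15, adjusted p = 0.0195), while its dim second probe set did not pass (log2 change 0.26, adjusted p = 0.557). The Atp5l call ended without heterozygous pool 1 (0.52), heterozygous pool 2 (0.60) or wild-type pool 2 (0.36). Atp5k, subunit e, had signals of 2087 and 2303 against 2785 and 3376 and just missed the threshold (log2 change 0.48, SE 0.17, adjusted p = 0.0508). Atp5mpl, a small proteolipid of the enzyme, was as bright as the members that rose but had overlapping pools, 34722 and 30769 against 31565 and 28252 (log2 change -0.13, SE 0.13, adjusted p = 0.481). It passed as lower under quantile normalization (-0.36, adjusted p = 0.0291) and cyclic loess (-0.44, adjusted p = 0.0126). Atp5j2, subunit f, was not tested, with signals of 117 to 186.

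Subunit c of the ring is made from several genes whose mature protein is the same, and 2 of them were members. Atp5g2 had signals of 4115 and 4145 in wild type and 4681 and 5554 in the heterozygous pools (log2 change 0.30, SE 0.15, adjusted p = 0.149). Atp5g1 was dim, with overlapping pools of 348 and 484 against 265 and 416 (log2 change -0.31, SE 0.38, adjusted p = 0.568). Neither c ring gene passed, beside the rise of the 4 genes of the head and central stalk. Whether the c ring differs from the head was not tested.

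Several members have probe sets that may read more than 1 transcript. For 7 tested members, Atp5d, Atp5g2, Atp5md, Cox4i1, Cox6a1, Cox6b2 and Cox6c, the brightest probe set has a name ending in _f_at, which on this type of array marks probes shared by a family of similar sequences. Copies of such genes elsewhere in the genome could add to these signals, that of Cox6a1 in the subunit 6a ratio among them. Other name endings, _r_at for Cox8b and Cox6b1, _i_at for Atp5e and _g_at for Atp5c1, were not counted here.

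A change is read against the scaling chosen for the arrays. Over all tested probe sets the median log2 change was 0.0011 as deposited, and it became 0.18 with arrays shifted to a common median, 0.10 under quantile normalization, 0.022 under cyclic loess and -0.74 with arrays centred on the sarcomere list. The oxidase subunits had a median log2 change of 0.47 as deposited, 0.65, 0.31 and 0.18 under the first 3 of these, and -0.27 with the sarcomere list as the reference. ATP synthase had 0.50, then 0.68, 0.40 and 0.25, and -0.24. Of 7453 tested probe sets, 1337 were called higher and 1519 lower as deposited, and 1945 and 1167 with the common median. Under quantile normalization these counts were 1513 and 1354, under cyclic loess 1237 and 1515, and with the sarcomere reference 138 and 4465. The medians of both enzymes turned below 0 when the mean of the sarcomere list was set to no change. Under that reference the median of the sarcomere list itself was -0.066, and that of the heart muscle cell markers was -0.13. Of the 29 tested members, 19 were called higher with the common median, 13 under quantile normalization, 5 under cyclic loess and 1 with the sarcomere reference. Members called lower numbered 0, 2, 2 and 9 in the same order. Whether these shares of members differ from those of all probe sets was not tested. The 5 that were called higher under cyclic loess were the muscle isoforms Cox6a2, Cox7a1 and Cox8b, with Atp5d and Atp5j. With the sarcomere reference only Atp5j was higher, and Cox7a1 and Cox6a2 had log2 changes of 0.12 and 0.067 that did not pass.

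**Figure D4:**
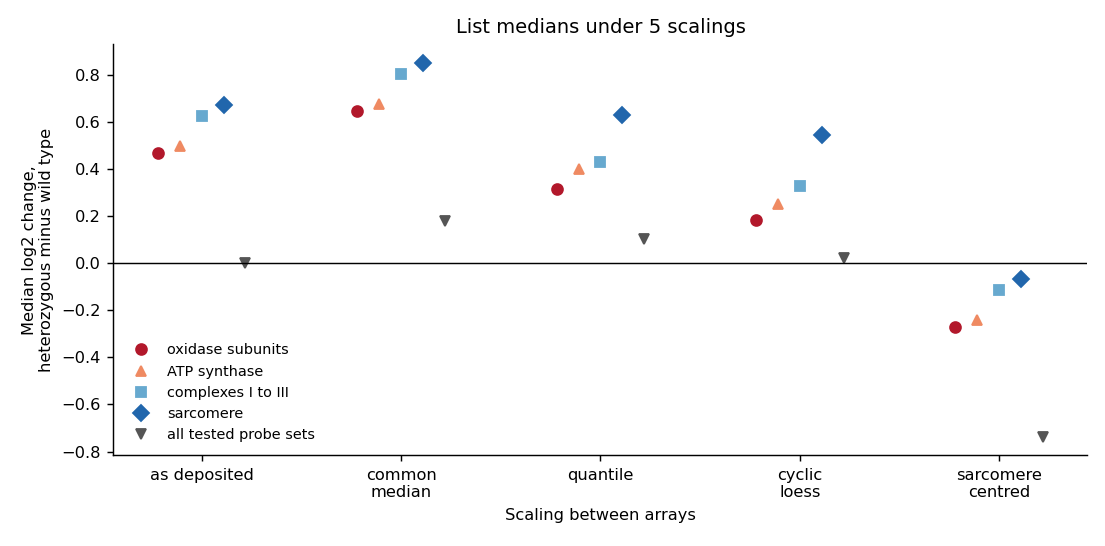
Median log2 change, heterozygous minus wild type, of oxidase subunits, ATP synthase, complexes I to III, the sarcomere list and all tested probe sets under 5 ways of scaling the arrays. The oxidase subunits run from 0.65 with a common median to -0.27 with the sarcomere reference, and all 5 points are below 0 only under that reference.

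Genes of other cell types moved over the same pools. All 9 markers of heart muscle cells were tested and none was near 0: 8 rose and Actc1 did not pass (log2 change 0.34), their median log2 change was 0.60, and their summed signal was 504142 to 558324 in wild type against 761850 to 763579 in the heterozygous pools. All 14 tested markers of lymphocytes and thymus fell, with a summed signal of 140692 to 143273 in wild type and 17807 to 18084 in the heterozygous pools. The thymocyte gene Rag1 had signals of 25556 and 28828 against 3183 and 3251. Of 8 tested markers of fast skeletal muscle, which also uses the muscle isoforms of the oxidase, 5 fell and 0 rose, with a summed signal of 19071 to 19791 against 9486 to 9803, and Myh2 was at or near the floor (15.8 to 73.6). Among 3 tested markers of brown fat, another tissue rich in Cox7a1 and Cox8b, 0 passed; Ucp1, which defines it, had signals of 6436 and 7263 against 4989 and 6666. Markers of further cell types rose with the members. Of 7 endothelial markers 6 rose (median log2 change 1.12, summed signal 7310 to 7329 in wild type against 16035 to 16641), and all 6 fibroblast markers rose (median 0.82, summed signal 46447 to 49866 against 84335 to 90818). Both tested lung epithelial markers rose, with a summed signal for the list of 18745 to 21739 against 47421 to 55042: Sftpc, a surfactant protein, rose 4.76-fold and Scgb1a1, a secretory protein of the airways, 2.49-fold. Of 3 tested red cell markers 2 rose (median 0.90, summed signal 128768 to 144193 against 160908 to 176784). For smooth muscle 1 of 5 rose, and for adipose tissue and macrophages 1 of 5 each fell, with no other call in these 3 lists. In pooled tissue RNA, fewer cells of a type and less RNA per cell cannot be told apart. The part of these shifts in the members' changes was not tested.

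The other complexes of the chain stood beside these enzymes. Of 38 tested genes of complexes I to III, 32 rose, 0 fell and 6 did not pass. Their log2 changes ran from 0.20 to 1.08 around a median of 0.62. The share called higher was 84.2%, against 19.5% of all tested genes and 63.6% of those among the brightest 2% on all 4 arrays. Sdhc, a membrane anchor of complex II, went from 19022 and 17698 to 42617 and 35453 (log2 change 1.08, adjusted p = 5.5e-04). Ndufb9, an accessory subunit of complex I, rose 1.81-fold (adjusted p = 8.62e-04). Ndufs1, a complex I subunit that carries iron and sulfur, rose 2.12-fold (adjusted p = 8.97e-04). The difference in counts from the 14 of 29 oxidase and ATP synthase genes was not tested. In complexes I to III, 12 genes were called without heterozygous pool 1 and 12 without pool 2.

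Among 16 tested genes that assemble, feed or regulate the same enzymes, 3 rose, 1 fell and 12 did not pass. Over all tested genes, 19.5% were called higher and 19.5% lower. Esrra, the estrogen-related receptor that activates genes of oxidative phosphorylation, had signals of 3107 and 2534 in wild type and 4831 and 5777 in the heterozygous pools (1.88-fold, log2 change 0.91, SE 0.17, adjusted p = 0.00350). Gabpb1, the partner subunit of the ETS factor GABP, went the other way, from 1395 and 1065 to 818 and 646 (log2 change -0.75, SE 0.23, adjusted p = 0.0310). Neither gene's pools overlapped between genotypes. Gabpa, the other subunit of GABP, did not pass (log2 change -0.078, SE 0.20, adjusted p = 0.794). Tmem70, which helps to assemble ATP synthase, rose 1.45-fold (adjusted p = 0.0293), and Lrpprc, which stabilises mitochondrial messenger RNA, rose 1.38-fold (adjusted p = 0.0453). Cytochrome c, the substrate of the oxidase, had a log2 change of 0.33 for Cycs (adjusted p = 0.161), and Atpif1, the inhibitor of ATP synthase, one of -0.20 (adjusted p = 0.279). Slc25a4, which exports ATP from the mitochondrion, had heterozygous pools far apart, 92745 and 57255, against 68345 and 50275 in wild type. In this list 2 genes passed without wild-type pool 1, 2 without wild-type pool 2, 1 if heterozygous pool 1 was left out and 0 if heterozygous pool 2 was.

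A fit without 1 pool leaves a lone pool in its genotype, which is assumed to vary like the other genotype. Of the 29 members, 15 were called higher without wild-type pool 1, 12 without wild-type pool 2, 5 if heterozygous pool 1 was left out and 3 if heterozygous pool 2 was, and none was called lower. Atp5d, Atp5j and Cox7a1 passed in all 4 of these fits, with log2 changes of 0.83 to 1.03, 1.23 to 1.37 and 0.83 to 0.88. Without the filter on dim probe sets 3 of 34 members passed, the same 3, beside 482 of 12422 probe sets called higher. Without the trend in the moderated spread 6 of 29 members passed, beside 1085 of 7453 probe sets called higher.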

How the data were processed

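Heart RNA of 4 pools was measured, and each deposited value is the linear intensity of 1 probe set on 1 array. How the authors summarised and scaled these intensities is not stated in the labels. With control probe sets kept, the trimmed mean (2% removed at each end) was 1487 in heterozygous pool 2, where controls did not alter it. It was 1501 on the other arrays. Without controls, trimmed means were nearly equal on all 4 arrays (1486.5 to 1488.1), so the values were used as they are. That trim leaves out the brightest probe sets, among them those of 14 members.

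Of 12488 probe sets, 66 controls were removed. Signals below the 10th percentile (36.25) were set to it before taking log2. The 40% of probe sets with the lowest mean were not tested, which left 7453; 29 members passed this filter and 5 did not. Genotype was fitted on all of them with limma 3.58.1 (lmFit, eBayes with trend) in R 4.3.3, with Benjamini-Hochberg adjustment at 0.05, and the fit was tested on simulated data. Each gene was counted on its brightest probe set. Isoform ratios were compared by an exact permutation test, adjusted over the 2 pairs that had values. Other scalings, floors, filters, moderation, a block by pool number, probe set summaries, thresholds and left-out pools were tried. Errors are SD over 2 pools or limma's SE. Precision is limited by the number of arrays. Figures were made with matplotlib 3.10.9.

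Named genes are all members, up to 4 genes with the smallest p of each pathway list, and defining markers. Cycs, Atpif1, Slc25a4, Gabpa and Actc1 were chosen after their values were seen. The members and lists were chosen with earlier results of these data known. Only probe sets with 1 symbol in the platform annotation were used, and 1 gene named in the labels is not reported here.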

Additional observations from a re-analysis of the deposited data

How the results depend on the processing

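Log2 differences of the isoform ratios kept their direction under quantile normalization, cyclic loess and each left-out pool, the settings that could move them. The floor moved no count by more than 1.5 times (2857 and 2850 probe sets called with floors at the 5th and 20th percentile). Across the 17 alternatives, 34 values of single members changed sign and were counted apart, whether or not their call changed too. Among values that kept their sign, the call stayed on its side of the threshold in 368, was lost in 63 and was gained in 24. Counts of changed genes among oxidase subunits (7), ATP synthase (7), assembly genes (0), complexes I to III (32), the other genes of the pathway (4) and all probe sets (2856) moved by over 1.5 times as follows. With a common median, 1 assembly gene and 7 other genes of the pathway were called. Cyclic loess gave 4 oxidase subunits, 3 ATP synthase genes and 18 genes of complexes I to III. With arrays centred on the sarcomere list the counts were 3, 4, 3, 6, 7 and 4603 in the order above, with 4465 of the probe sets lower. Without the filter on dim probe sets they were 1 oxidase subunit, 2 ATP synthase genes, 5 genes of complexes I to III, 0 other genes and 1206 probe sets. Without the trend 3, 3, 21 and 2 genes were called in oxidase subunits, ATP synthase, complexes I to III and other genes, and at a threshold of 0.01 they were 3, 3, 21 and 1, with 1659 probe sets. With 1 pool left out, the counts ran from 1 to 7 oxidase subunits, 2 to 8 ATP synthase genes, 12 to 34 genes of complexes I to III, 0 to 2 other genes and 1707 to 2289 probe sets.

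Pool numbers are not stated to pair the samples, and the deviations of same-numbered pools correlated at 0.16 across probe sets. With the pool number as a block, 17 members were called, 1 of them the assembly gene Cox17. Signs changed with arrays centred on the sarcomere list for Atp5a1 (-0.12), Atp5c1 (-0.28), Atp5e (-0.14), Atp5g2 (-0.43), Atp5k (-0.25), Atp5l (-0.18), Atp5md (-0.0079), Atp5o (-0.24), Atp5pb (-0.49), Cox17 (-0.39), Cox18 (-0.71), Cox4i1 (-0.35), Cox5b (-0.22), Cox6b1 (-0.56), Cox6c (-0.27), Cox7a2 (-0.24), Cox7a2l (-0.54), Cox7b (-0.24), Cox8b (-0.058) and Cox8c (-0.56), a setting that lowers every gene alike by construction. None of the other sign changes belonged to a call: Atp5mpl (0.049) and Cox16 (0.17) with a common median, Cox16 (0.034) under quantile normalization, Cox18 (-0.034) under cyclic loess and Cox6b2 (0.28) with probe sets of a gene combined. With a pool left out, log2 changes ran from -0.10 to 0.59 for Atp5pb, -0.18 to 0.53 for Cox8c, -0.11 to 0.086 for Cox16, -0.63 to 0.021 for Atp5g1, -0.019 to 0.073 for Cox18, -0.25 to 0.61 for Cox6b1 and -0.61 to 0.14 for Cox6b2. Other than as stated, the cause was not tested. The Cox8 pair gave no value, since Cox8a was left out as dim.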

Other observations

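Probe sets that carry several symbols were left out of the counts above and are given here as values. The probe set annotated to Cox7c, a small oxidase subunit, and Gm12338 had signals of 89623 and 79782 in wild type and 115008 and 109968 in the heterozygous pools (limma log2 change 0.41, SE 0.12, adjusted p = 0.0291), and a dimmer one with the same symbols did not pass (log2 change 0.44, adjusted p = 0.0655). The probe set annotated to both Atp5c1 and its pseudogene Atp5c1-ps went from 19418 and 18410 to 5432 and 6366, a 3.22-fold decrease (log2 change -1.68, SE 0.14, adjusted p = 5.7e-05), against log2 changes of 0.46 and 0.50 on the probe sets of Atp5c1 alone. For the probe set annotated to Cox14 and Gm29733 the log2 change was 0.43 (SE 0.23, adjusted p = 0.180).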
